A study of Homo sapiens with 8 samples.

Results

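The genes described are the SF3A1, SF3A2, SF3A3, SF3B1, SF3B2, SF3B3, SF3B4 and SF3B5 subunits of the U2 snRNP and the U2AF1 and U2AF2 subunits of U2AF. They were taken by gene name from the RNAseq table, 10 of the 61906 genes listed, and all 10 were among the 14478 genes that averaged 1 TPM or more and were tested. The cells were U251, a human glioblastoma line of wild-type genotype by its label, and every library came from that one line. The 8 libraries comprised 4 vehicle libraries (replicates 1 to 4) from cultures given DMSO. The other 4 came from cultures given LLY-283 at 100 nM, and RNA was taken from both groups after 24 h. LLY-283 inhibits PRMT5, an arginine methyltransferase that makes symmetric dimethylarginine and has spliceosome proteins among its substrates.

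Most human introns are removed by a spliceosome in which U2AF first reads the 3′ end of the intron. U2AF2 binds the pyrimidine tract and U2AF1 the AG dinucleotide of the splice site, and together they help to bring in the U2 snRNP. Within that particle, SF3A and SF3B hold the U2 snRNA on the branch point sequence, and SF3B1, which clamps the branch point adenosine, is the protein to which splicing modulators such as pladienolide bind. SF3B is also part of the particle that recognises the rare U12-type introns.

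Values are TPM, a measure scaled to the length of the transcript and the total of the library, so that levels can be set beside each other between genes. The read depth behind them is unknown, since TPM keeps no read numbers, and no counting error can be given. The number of genes above 0 lay between 24042 and 24757 per library. Genes of the mitochondrial genome took between 10.2% and 11% of TPM in 7 libraries and 7.19% in LLY-283 replicate 4. That library had the highest value of the 8 libraries for SF3A1, SF3B1, SF3B2, SF3B4, SF3B5, U2AF1 and U2AF2. Of the 6 glial and mesenchymal markers checked, all were present, from S100B at 4.33 ± 0.645 TPM to VIM at 4301.1 ± 34.8 TPM in vehicle (SD, n = 4). GFAP, NES and SOX2 were lower and CD44 higher with LLY-283, and the part of such a shift in the values below was not tested. The markers of leukocytes (PTPRC), epithelium (EPCAM), endothelium (PECAM1) and neurons (RBFOX3) averaged at most 0.0625 TPM in either group. PRMT5 mRNA was 100.0 ± 5.03 TPM in vehicle and 100.4 ± 4.91 TPM with LLY-283 (SD, n = 4, limma, adjusted p = 0.944). LLY-283 acts on the enzyme, so this mRNA does not check the labels.

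The SF3 and U2AF transcripts were abundant in U251 cells. Mean levels over the 8 libraries ran from 105.1 TPM for SF3A1, above 89.3% of the genes tested, to 244.5 TPM for U2AF1, above 96% of them. In vehicle, U2AF1 (221.4 ± 10.1 TPM) and U2AF2 (214.8 ± 3.68 TPM) stood above the others, and the ranges of the pair overlapped through vehicle replicate 3 alone (SD, n = 4). They were followed by SF3B3 (164.9 ± 8.08 TPM) and SF3B2 (161.9 ± 2.82 TPM), whose ranges overlapped. SF3B4, SF3B1 and SF3B5 came next, at 147.9 ± 4.09, 146.7 ± 2.73 and 142.6 ± 5.66 TPM, each overlapping its neighbour. SF3A2 (133.9 ± 3.53 TPM) and SF3A3 (129.7 ± 2.17 TPM) overlapped each other, and SF3A1, at 95.3 ± 4.45 TPM, lay below every value of the rest. The level of SF3A1 in vehicle was thus under those of its partners in the SF3A trimer in each of the 4 libraries. The SF3B subunits among the members were closer in level, with vehicle means from 142.6 to 164.9 TPM. SF3B6 (274.5 TPM) and PHF5A (77.7 TPM), SF3B subunits that are not members, lay outside that range in vehicle.

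**Figure D1:**
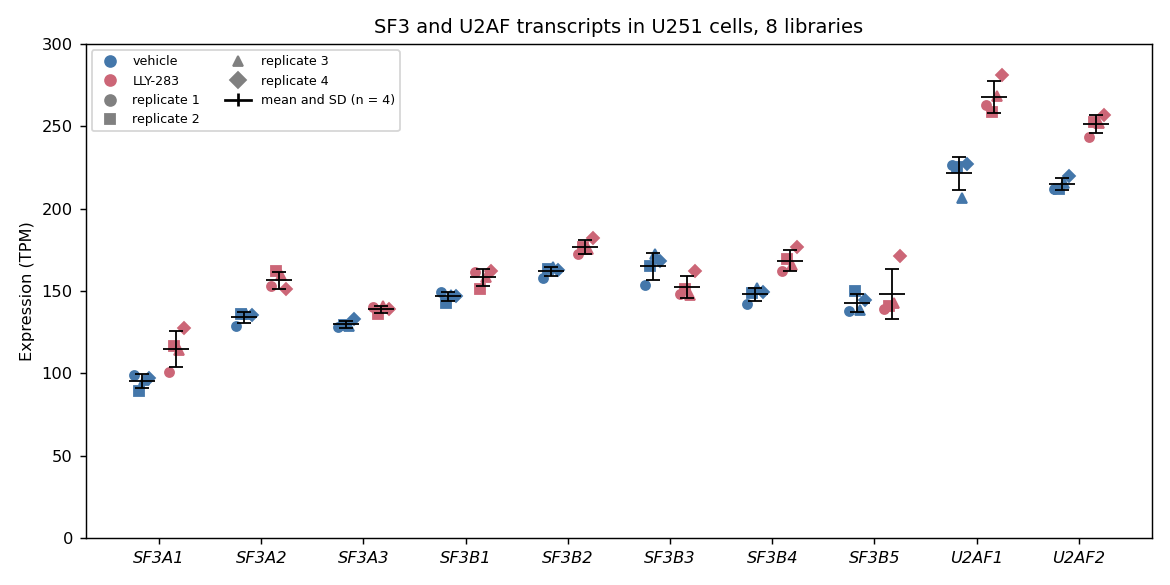
Expression in TPM (vertical axis) of the 10 transcripts (horizontal axis) in 4 vehicle libraries (blue) and 4 LLY-283 libraries (red), one marker shape per replicate, with the mean and SD. The red values lie above all blue values for 8 genes, whereas SF3B3 lies lower with overlap and SF3B5 overlaps apart from one LLY-283 library at 170.94 TPM.

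To determine how PRMT5 inhibition affected these transcripts, LLY-283 was compared with vehicle by limma on log2(TPM + 0.1). With LLY-283, 8 of the 10 were higher at an adjusted p under 0.05 and none was lower. Of all genes tested, 8.61% were called higher and 17.6% lower, and among the 3382 genes that averaged 50 TPM or more, 17.4% were called higher. The members were chosen with earlier results of these data known, so their count beside these shares is a description, not a test. With the values corrected for GC content and length and the replicate number as a block, 5 members were called higher, and SF3A1, SF3A3 and SF3B1 were not. Of all genes in that fit, 6.55% were called higher and 14.1% lower. Under median-of-ratios scaling 13.3% of all genes were called higher and 12.9% lower, with 8 members higher. Without these changes the 8 called members had each LLY-283 value above each vehicle value, which was true of 9.63% of the genes tested. The changes were small. No member passed the threshold together with a change above 1.5-fold, as 3.87% of the genes tested did in either direction. The members had a median log2 fold change of 0.16, beside -0.05 for all genes tested. The reference moved with the scaling, to 0.014 (members 0.15) under quantile normalization and to -0.002 (members 0.20) under median-of-ratios scaling. SF3B3 was the one member with a lower mean, and it was not called in the comparison as given here (limma, unadjusted p = 0.0252, adjusted p = 0.0796). RNA came from whole cultures, so a change in the mix of cell states and a change in RNA per cell cannot be told apart.

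U2AF had the largest relative difference in summed TPM of the 3 complexes. The TPM of its subunits summed to 436.2 ± 10.5 in vehicle and 519.0 ± 14 with LLY-283 (SD, n = 4), or 19% more. Without vehicle replicate 3, which had the lowest sum at 421.7 TPM, it was 17.7% more. U2AF2 (ENSG00000063244, chr19:55654146-55674716, plus strand, 12 exons), the large subunit that binds the pyrimidine tract, was measured at 211.78, 212.22, 215.37 and 219.75 TPM in vehicle replicates 1 to 4. With LLY-283 it was at 243.62, 252.69, 252.17 and 256.79 TPM. Every treated library was above every vehicle library, and the spread within a group was small beside the gap between the groups. The log2 fold change was 0.23 ± 0.026 (SE), with a 95% confidence interval of 0.17 to 0.29 and an adjusted p of 0.000431.

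U2AF1 (ENSG00000160201, chr21:43092956-43107570, minus strand, 8 exons), the small subunit that reads the AG, was at 226.77, 225.46, 206.3 and 227.0 TPM in vehicle. In the LLY-283 libraries it was at 262.77, 258.54, 268.28 and 281.25 TPM. The groups did not overlap, and vehicle replicate 3 stood apart below the other vehicle libraries. Its log2 fold change was 0.27 ± 0.04 (SE, 95% confidence interval 0.19 to 0.36, adjusted p = 0.00123).

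A second gene model, ENSG00000275895 (chr21:6484623-6499248, minus strand), which GENCODE release 44 labels as an artifact and a duplicate of U2AF1, was listed at 12.55 TPM in vehicle replicate 3 and at 0 in the other 7 libraries. The canonical transcripts of U2AF1 and of the duplicate are both 945 bases long and 99.89% identical. They differ at 1 base, A12C, counted from 1 at the 5′ end of the transcript with the base of U2AF1 first. Their first 24 bases are shown with that base in capitals, because reads of these transcripts that do not cover it match both copies equally.
U2AF1: gacgtctcccgAgggcgtcggcag
ENSG00000275895: gacgtctcccgCgggcgtcggcag
Added together, both gene models gave 226.77, 225.46, 218.85 and 227.00 TPM in vehicle, a mean of 224.5 ± 3.84 (SD, n = 4), and the spread of U2AF1 in vehicle fell from 10.1 to 3.84 TPM. With the sum in place of U2AF1 the log2 fold change was 0.25 (limma, adjusted p = 0.000543). Without vehicle replicate 3 it was 0.24 (adjusted p = 0.00259).

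**Figure D2:**
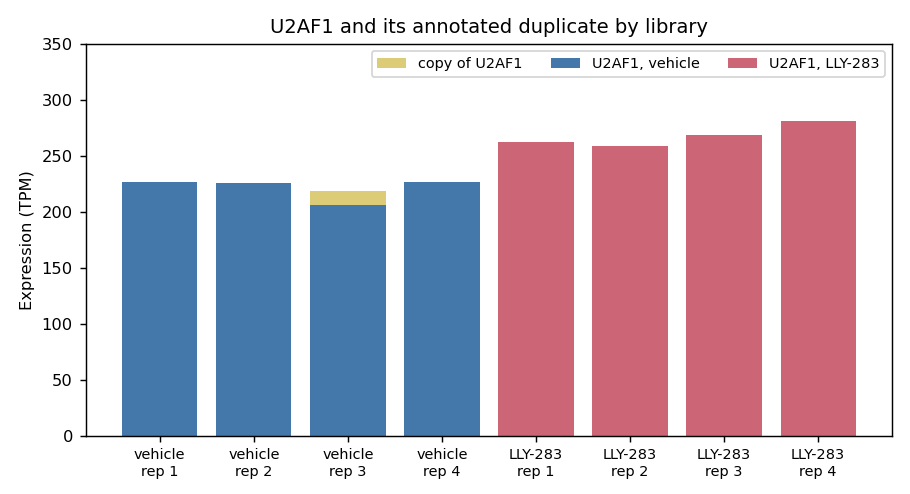
TPM of U2AF1 (blue for vehicle, red for LLY-283) and of its annotated duplicate (yellow, stacked on top) in each of the 8 libraries. The duplicate has a value above 0 in vehicle replicate 3 alone, 12.55 TPM, on top of the lowest U2AF1 value of 206.3 TPM.

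The SF3A trimer, which bridges SF3B and the rest of the U2 particle, summed to 359.0 ± 5.08 TPM in vehicle and 410.3 ± 10.6 TPM with LLY-283 (SD, n = 4), or 14.3% more. SF3A1 (ENSG00000099995, chr22:30331988-30356919, minus strand, 16 exons), its largest subunit, was at 99.16, 88.93, 96.05 and 97.15 TPM in vehicle and at 101.05, 116.72, 114.11 and 127.55 TPM with LLY-283. LLY-283 replicate 1 was barely above the highest vehicle library, whereas the other 3 treated libraries were well above it. The log2 fold change was 0.26 ± 0.065 (SE, 95% confidence interval 0.12 to 0.41, adjusted p = 0.0162). With the GC and length correction and the replicate block it was 0.25 (adjusted p = 0.0589).

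SF3A2 (ENSG00000104897, chr19:2236824-2248655, plus strand, 9 exons), a zinc finger protein of the trimer, was at 128.66, 136.01, 135.75 and 135.32 TPM in vehicle. The LLY-283 libraries were at 153.21, 162.05, 159.66 and 150.99 TPM, all above the vehicle libraries. SF3A2 had a log2 fold change of 0.22 ± 0.033 (SE, 95% confidence interval 0.15 to 0.30, adjusted p = 0.0013). It shares 881 bases with PLEKHJ1 on the opposite strand, a gene at 54.7 TPM in vehicle and 52.2 TPM with LLY-283. Whether the authors' counting used strand is not given in the sources used here, so reads from the shared stretch may have been assigned to either gene.

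SF3A3 (ENSG00000183431, chr1:37956975-37990075, minus strand, 17 exons), the third subunit, was at 128.09, 129.12, 128.82 and 132.92 TPM in vehicle and at 140.21, 135.98, 140.77 and 138.74 TPM with LLY-283. This was the smallest rise of the trimer, 7.08% of the vehicle mean, with the 8 values falling into 2 tight groups. Its log2 fold change was 0.10 ± 0.026 (SE, 95% confidence interval 0.04 to 0.16, adjusted p = 0.0198). The call was near the threshold: the adjusted p was 0.053 without LLY-283 replicate 1, 0.0562 without LLY-283 replicate 3, 0.0551 without vehicle replicate 1 and 0.051 without vehicle replicate 2.

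SF3B differed least in its sum. The 5 SF3B members summed to 764.1 ± 15.8 TPM in vehicle and 804.0 ± 33.6 TPM with LLY-283 (SD, n = 4), or 5.23% more, and 3 of them were called higher. Without LLY-283 replicate 4 the treated mean was 787.3 TPM, or 3.04% more. SF3B4 (ENSG00000143368, chr1:149923317-149927803, minus strand, 6 exons), an RNA-binding protein that contacts the intron next to the branch point, was at 142.14, 148.54, 151.68 and 149.43 TPM in vehicle. It was at 162.3, 169.11, 165.69 and 176.77 TPM with LLY-283, without overlap. The log2 fold change of 0.19 ± 0.034 (SE, 95% confidence interval 0.11 to 0.26, adjusted p = 0.004) was the largest among the SF3B members.

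SF3B2 (ENSG00000087365, chr11:66050729-66069308, plus strand, 22 exons), the partner to which SF3B4 binds, was at 157.87, 163.2, 164.28 and 162.44 TPM in vehicle and at 172.44, 176.87, 175.22 and 182.43 TPM with LLY-283. The lowest treated library was above the highest vehicle library. Its log2 fold change was 0.13 ± 0.027 (SE, 95% confidence interval 0.06 to 0.19, adjusted p = 0.00917).

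SF3B1 (ENSG00000115524, chr2:197388515-197435079, minus strand, 25 exons), the scaffold of the complex and its branch point clamp, was at 149.32, 142.86, 147.55 and 146.91 TPM in vehicle. With LLY-283 it was at 161.52, 151.23, 158.35 and 162.3 TPM, and LLY-283 replicate 2 was only just above the highest vehicle library. The log2 fold change was 0.11 ± 0.03 (SE, 95% confidence interval 0.04 to 0.18, adjusted p = 0.0259). This call did not hold in 5 of the 8 fits that left out a library, with adjusted p-values of 0.0684 (without LLY-283 replicate 1), 0.0575 (without LLY-283 replicate 3), 0.0708 (without vehicle replicate 2), 0.0517 (without vehicle replicate 3) and 0.0614 (without vehicle replicate 4). It was also lost once the values were corrected for GC content and length (log2 fold change 0.07, adjusted p = 0.174).

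SF3B3 (ENSG00000189091, chr16:70523791-70577670, plus strand, 26 exons), a beta-propeller protein on which SF3B1 and SF3B5 sit, was at 153.55, 165.17, 172.26 and 168.46 TPM in vehicle. It was at 148.12, 151.12, 147.4 and 161.89 TPM with LLY-283. The groups overlapped, since vehicle replicate 1 was below LLY-283 replicate 4, and the remaining 3 treated libraries were below all vehicle libraries. Its log2 fold change was -0.12 ± 0.044 (SE, 95% confidence interval -0.21 to -0.02, adjusted p = 0.0796). It passed as lower without LLY-283 replicate 4 (-0.15, adjusted p = 0.0216), without vehicle replicate 1 (-0.15, adjusted p = 0.0305) and after removal of the mitochondrial genes from the total (-0.12, adjusted p = 0.0364). Under median-of-ratios scaling the log2 fold change of SF3B3 was nearer to no change, at -0.07 (limma, adjusted p = 0.276).

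SF3B5 (ENSG00000169976, chr6:144094884-144095573, minus strand, 1 exon), the small subunit bound to SF3B3, was at 137.69, 149.86, 138.6 and 144.42 TPM in vehicle and at 139.08, 140.84, 142.56 and 170.94 TPM with LLY-283. LLY-283 replicates 1 to 3 lay inside the vehicle range and LLY-283 replicate 4 lay far above it. The log2 fold change was 0.05 ± 0.064 (SE, 95% confidence interval -0.09 to 0.20, adjusted p = 0.586) and turned to -0.02 (adjusted p = 0.725) without that library.

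In the LLY-283 libraries U2AF1 and U2AF2 did not overlap, at 267.7 ± 9.87 and 251.3 ± 5.53 TPM (SD, n = 4). SF3B2 (176.7 ± 4.21 TPM), SF3B4 (168.5 ± 6.19 TPM), SF3B1 (158.4 ± 5.04 TPM), SF3A2 (156.5 ± 5.23 TPM), SF3B3 (152.1 ± 6.7 TPM), SF3B5 (148.4 ± 15.1 TPM) and SF3A3 (138.9 ± 2.14 TPM) followed, each overlapping the next. SF3A1 remained the lowest at 114.9 ± 10.9 TPM. SF3B3 moved from 3rd of the 10 in vehicle to 7th with LLY-283.

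**Figure D3:**
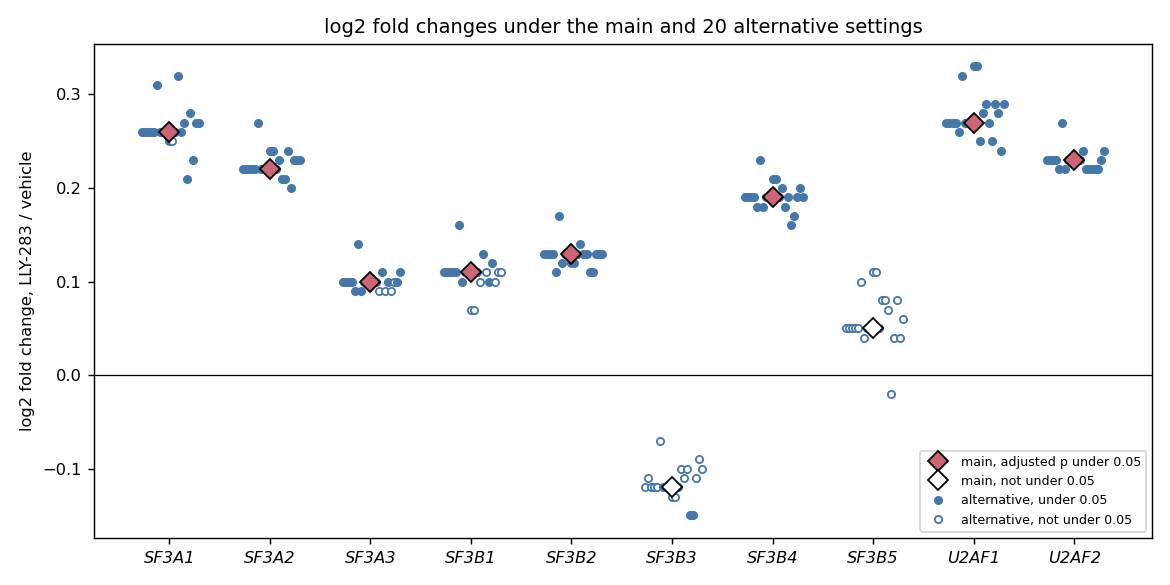
log2 fold change of LLY-283 over vehicle (vertical axis) of each member as reported (diamonds) and under 20 other settings (circles), filled where the adjusted p was under 0.05. SF3A2, SF3B2, SF3B4, U2AF1 and U2AF2 are filled throughout, and one SF3B5 value, -0.02, crosses 0.

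To compare the complexes without the scaling of a library, 4 ratios of TPM were formed within each library and tested by an exact two-sided permutation test, with p-values adjusted over the 4. With 4 libraries against 4 the smallest p that this test can give is 0.0286. The ratio of summed SF3B to summed SF3A was 2.08, 2.17, 2.15 and 2.11 in vehicle and 1.99, 1.9, 1.9 and 2.05 with LLY-283. All treated values were below all vehicle values, with a difference of -0.12 on the log2 scale (exact permutation p = 0.0286, adjusted p = 0.0571). The ratio of summed U2AF to summed SF3 members was 0.4, 0.39, 0.372 and 0.393 in vehicle and 0.43, 0.425, 0.432 and 0.423 with LLY-283. Here all treated values were above the vehicle values, with a log2 difference of 0.14 (exact permutation p = 0.0286, adjusted p = 0.0571). The difference was 0.12 without vehicle replicate 3, the library with a value for the duplicate of U2AF1. Neither ratio passed the adjusted threshold, although both reached the smallest p of the design. With p-values adjusted over the 4, both could pass only if a further ratio also reached that smallest p. The adjusted threshold therefore cannot tell a weak difference from a clear one in these ratios.

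For single subunits, the ratio of U2AF2 to U2AF1 was 0.934, 0.941, 1.04 and 0.968 in vehicle and 0.927, 0.977, 0.94 and 0.913 with LLY-283. The groups overlapped, with a log2 difference of -0.05 (exact permutation p = 0.343, adjusted p = 0.343). The difference was -0.01 without vehicle replicate 3, the library with a value for the duplicate, -0.03 without LLY-283 replicate 4 and -0.03 with the duplicate added to U2AF1. The ratio of SF3B1 to SF3A1 was 1.51, 1.61, 1.54 and 1.51 in vehicle and 1.6, 1.3, 1.39 and 1.27 with LLY-283. Its log2 difference was -0.15 (exact permutation p = 0.114, adjusted p = 0.152), and LLY-283 replicate 1 lay with the vehicle libraries. Chosen after the values were seen and therefore given without a test, the ratio of SF3B3 to SF3B1 was 1.03, 1.16, 1.17 and 1.15 in vehicle. It was 0.917, 0.999, 0.931 and 0.997 with LLY-283, lower in each treated library than in any vehicle library.

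**Figure D4:**
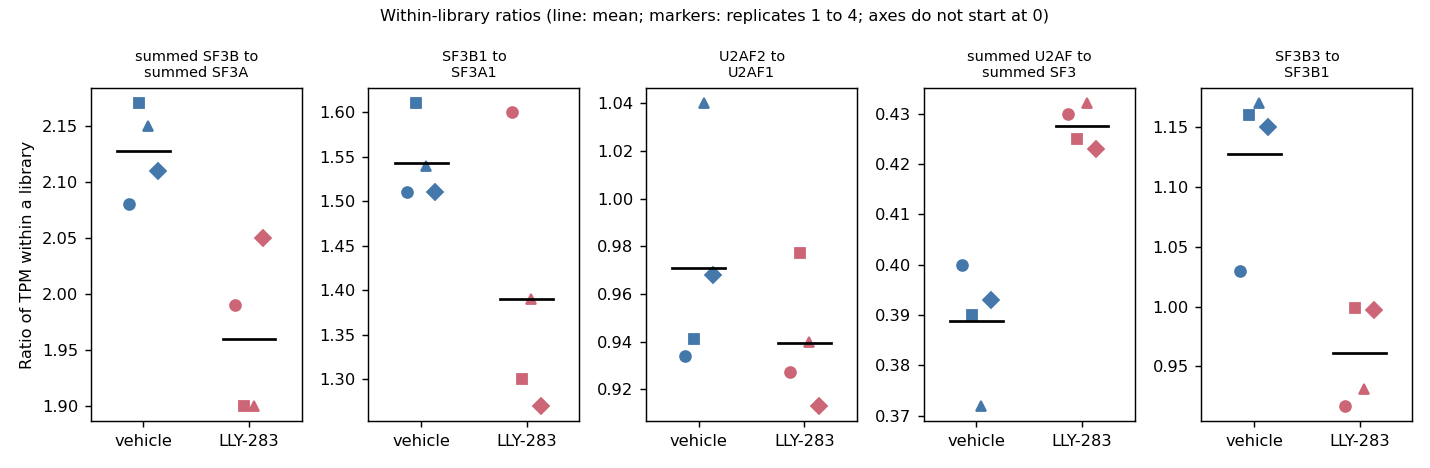
Ratios of TPM within a library (vertical axes, which do not start at 0) in vehicle (blue) and LLY-283 (red), with one marker shape per replicate and a line at the mean. The groups are apart for summed SF3B to summed SF3A and for summed U2AF to summed SF3, and overlap for SF3B1 to SF3A1 and for U2AF2 to U2AF1. They are also apart for SF3B3 to SF3B1, a ratio chosen after the values were seen and not tested.

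Promoters of the members were searched for the letters of 6 motifs on both strands, in windows of 300 bases from RefSeq on GRCh38.p14 that run from 250 bases before to 50 after the start. Of the 10 members 9 were matched, all but SF3B3. The ETS motif CCGGAAGT was found in 6 of the 9, against 4.14% of all 35116 promoters. A member counted if any of its promoters matched, whereas the background counts single promoters. That background holds promoters of genes at any level, and a share among genes as abundant as the members was not computed. The 6 were SF3A1, SF3A2, SF3A3, SF3B2, SF3B4 and U2AF2. They were all called higher, as were SF3B1 and U2AF1 without the motif, so that 8 of the 9 matched members were called higher. None of their ETS matches overlapped a match of another motif searched. They are printed as 30 bases in the direction of the gene, with the match in capitals, to show its surroundings in the members that share it.
SF3A1: aggggacggtcCCGGAAGTgcgccagtcgt
SF3A2: tctcatttgccCCGGAAGTgctttctttgc
SF3A3: agtcccggggcACTTCCGGcactcgcggaa
SF3B2: atacggcgccaCCGGAAGTtccggcaagtg
SF3B4: ccgtcttcgccCCGGAAGTggaagtcgtgc
U2AF2: gccggcggcggCCGGAAGTagccgaagcca

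The matches lay close to the RefSeq start, their first base being -69 (SF3A3), -53 (SF3B2), -49 (SF3A1), -30 (U2AF2), -26 (SF3B4) and -9 (SF3A2) from it. In SF3A3 the match is the reverse complement. The stretches are chr22:30356925-30356954 for SF3A1, chr19:2236804-2236833 for SF3A2, chr1:37990073-37990102 for SF3A3, chr11:66052300-66052329 for SF3B2, chr1:149927811-149927840 for SF3B4 and chr19:55654994-55655023 for U2AF2. That of SF3B4 lies in no exon of GENCODE release 44, and that of SF3A3 has 3 bases in an exon of SF3A3. Those of SF3B2 and U2AF2 lie wholly in annotated exons of the same genes, and those of SF3A1 and SF3A2 wholly in exons of CCDC157 and PLEKHJ1, which start nearby on the other strand. The stretch of SF3A2 also has 10 bases in an exon of SF3A2. Of the other motifs, the GC box GGGCGG was in 7 of the 9 promoters (45% of all promoters), and the E-box CACGTG in that of SF3B1 only (7.26%). CCAAT was found in SF3B5 only (34.6%), the NRF1 core CGCATGCG in U2AF1 only (2.02%) and TATAAA in none of the 9 (11.5%). A match is a description of the letters, and binding of a factor was not measured.

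To place the members among their partners, 4 lists of genes were counted in the same comparison. The lists, too, were chosen with earlier results of these data known, so their counts beside the background are descriptions, not tests. Of 16 other proteins of the U2 particle, 9 were called higher and 1 lower, where all genes tested had 8.61% higher and 17.6% lower. The list had a median log2 fold change of 0.11, beside -0.05 for all genes tested. SF3B6, a further SF3B subunit, was at 274.5 ± 6.17 TPM in vehicle and 295.3 ± 11.1 TPM with LLY-283 (SD, n = 4, log2 fold change 0.11, adjusted p = 0.0405). PHF5A, which sits with SF3B1 in the pocket for splicing modulators, went from 77.7 ± 2.28 to 85.2 ± 4.46 TPM (0.13, adjusted p = 0.0447). These 2 calls held in 12 and in 10 of the 20 other settings. With a library left out, SF3B6 was called only without LLY-283 replicate 3 or 4 (adjusted p of 0.0561 to 0.103 otherwise). PHF5A was called only without LLY-283 replicate 3 (0.057 to 0.108 otherwise). With them, 5 of the 7 SF3B subunits were called higher.

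SNRPA1, a protein bound to the 3′ part of the U2 snRNA, rose from 235.9 ± 1.81 to 284.3 ± 6.95 TPM (SD, n = 4, log2 fold change 0.27, adjusted p = 0.000155). Its partner SNRPB2 rose from 97 ± 2.21 to 107.2 ± 3.31 TPM (0.14, adjusted p = 0.00998). The largest change of the list was in SMNDC1, a Tudor domain splicing factor that binds dimethylated arginine, from 41 ± 1.81 to 61.6 ± 4.66 TPM (0.59, adjusted p = 0.000191). It was the one list gene called with a change above 1.5-fold, a line it passed in 10 of the 20 other settings, with log2 fold changes of 0.56 to 0.64. RBM10, an RNA-binding regulator of exon inclusion, was called lower, at 54 ± 0.48 TPM in vehicle and 50 ± 1.82 TPM with LLY-283 (-0.11, adjusted p = 0.036), a call that held in 8 of the 20 other settings. With a library left out, it was called only without LLY-283 replicate 4 (adjusted p of 0.0641 to 0.0912 otherwise).

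Of 8 factors that act with U2AF or resemble it, 2 were called higher and 1 lower, beside 8.61% and 17.6% of all genes tested and 17.4% called higher among those of 50 TPM or more. With so few genes these counts are near the background. The median log2 fold change was 0.09, and 5 were called higher under median-of-ratios scaling, where 13.3% of all genes were. RBM39, which resembles U2AF2, rose from 193.4 ± 3.87 to 264.7 ± 17.5 TPM (SD, n = 4, log2 fold change 0.45, adjusted p = 0.000232). PUF60, another protein with U2AF2-like domains, rose from 159.9 ± 3.41 to 187.4 ± 6.97 TPM (0.23, adjusted p = 0.00114). DDX39B, the helicase also called UAP56 that U2AF2 recruits, fell from 385.5 ± 4.84 to 334.6 ± 4.21 TPM (-0.20, adjusted p = 0.000364). SF1, which binds the branch point before the U2 snRNP, was at 208.3 ± 3.69 and 219.2 ± 8.64 TPM (0.07, adjusted p = 0.132), and it was called higher without LLY-283 replicate 4 (0.10, adjusted p = 0.0127) and under median-of-ratios scaling (0.12, adjusted p = 0.0198).

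None of the 8 proteins of the U11/U12 particle, which shares SF3B, was called in either direction by limma, and none had an unadjusted p under 0.05. With 8.61% of all genes tested called higher and 17.6% lower, few calls or none among 8 genes is near the background. Their median log2 fold change was -0.01. ZRSR2, which reads the 3′ splice site of U12-type introns as U2AF1 does for other introns, was at 25.2 ± 1.94 TPM in vehicle and 25.4 ± 0.985 TPM with LLY-283 (SD, n = 4, log2 fold change 0.02, 95% confidence interval -0.12 to 0.15, adjusted p = 0.866). Without vehicle replicate 3, 1 protein of the list, PDCD7, was called higher (0.15, adjusted p = 0.0377), as it was under median-of-ratios scaling. Of 13 proteins that lie next to SF3B in the activated spliceosome, 5 were called higher and none lower, beside 8.61% and 17.6% of all genes tested, and the median was 0.11. The 5 became 3 with the GC and length correction and the replicate block, where 6.55% of all genes were called higher. SRRM1 rose from 111.5 ± 3.11 to 147.1 ± 11.7 TPM (0.40, adjusted p = 0.000897) and BUD31 from 113.1 ± 4.4 to 128.0 ± 4.15 TPM (0.18, adjusted p = 0.00703). Without LLY-283 replicate 4, RNF113A of this list was called lower (-0.17, adjusted p = 0.025).

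**Figure D5:**
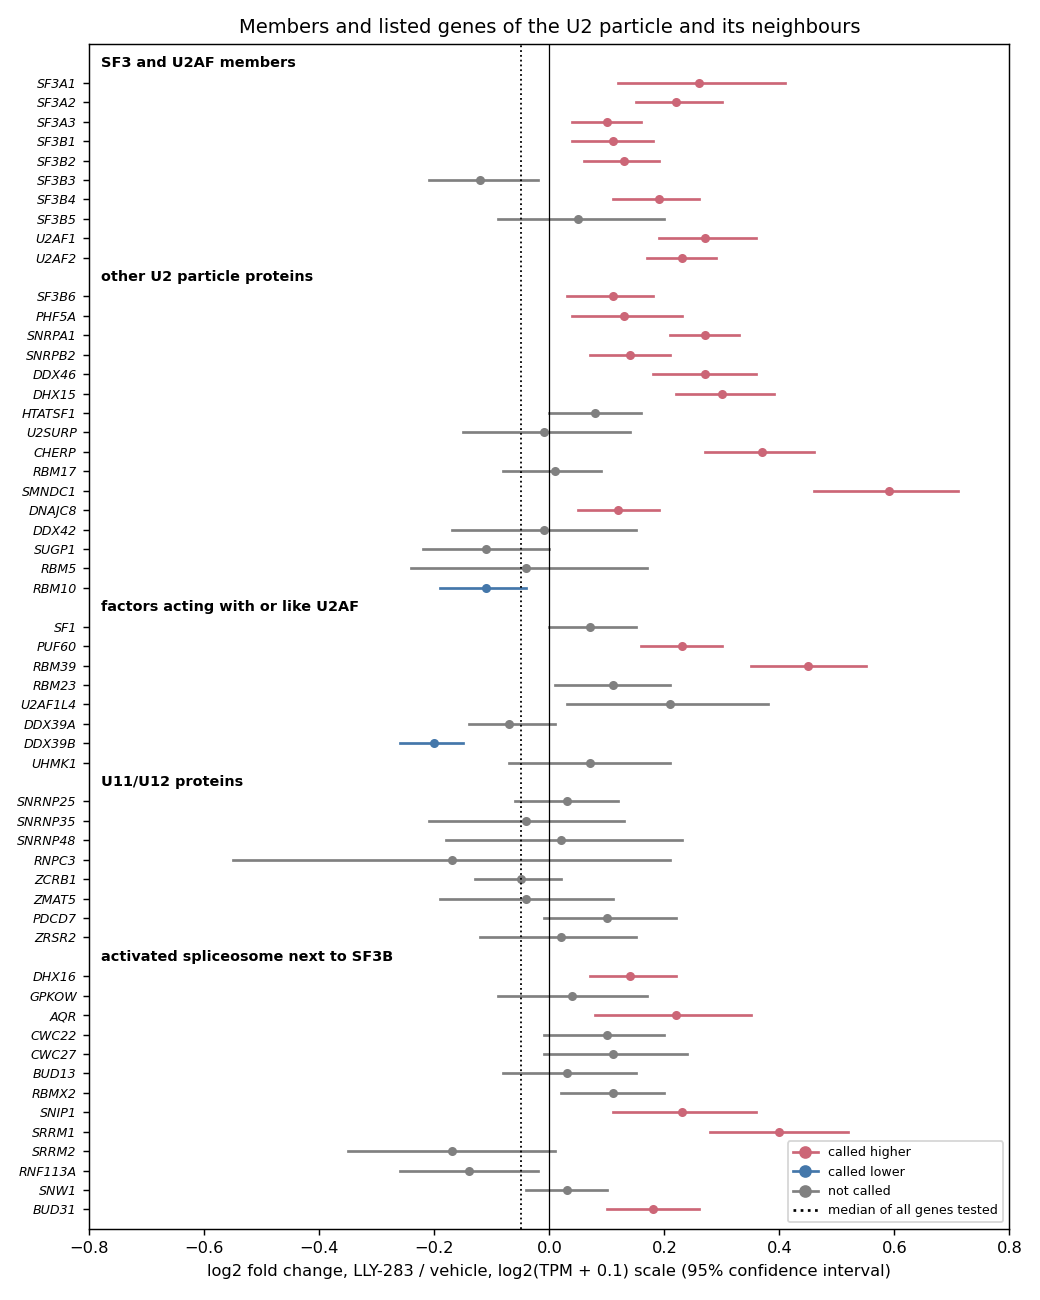
log2 fold change of LLY-283 over vehicle with 95% confidence intervals (horizontal axis) for the 10 members and the 45 genes of the 4 lists, coloured by the call, with a dotted line at the median of all genes tested (-0.05). Members called higher lie between 0.10 and 0.27, SMNDC1 reaches 0.59, and no U11/U12 protein is coloured.

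For each member called higher, the gene of at least 10 TPM whose pattern over the 8 libraries was nearest was found, by the mean absolute difference of log2 values centred on each gene's mean. These were COPS3 for U2AF2 (0.0171), ECD for U2AF1 (0.0194), TFIP11 for SF3A1 (0.0413), SUPT6H for SF3A2 (0.0212), TSR1 for SF3A3 (0.0129), EIF2S3 for SF3B1 (0.0146), EXT2 for SF3B2 (0.0131) and SRF for SF3B4 (0.016). The median difference over all genes compared was between 0.0874 and 0.16 for these members. SF3A1 had the most distant nearest gene, and none of the 8 nearest genes was from the lists above.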

How the data were processed

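Poly(A) RNA was captured from 4 vehicle and 4 LLY-283 cultures of U251 cells. The submitters' processing notes name bcl2fastq 2.20, cutadapt 1.18, STAR 2.7.0f, Picard and RSEM 1.3.1 on GRCh38, whereas the study's methods give other versions of STAR and RSEM and name GENCODE release 41. The authors deposited TPM per gene and library, as RSEM estimates them. TPM removes library size and transcript length but not library composition. No column was left unmapped, and no library pair was identical.

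From the TPM, log2(TPM + 0.1) of the 14478 genes averaging 1 TPM or more was compared by limma 3.58.1 (lmFit, eBayes with a trend, R 4.3.3), two-sided, without a replicate block, with Benjamini-Hochberg adjustment over all genes tested. A call is an adjusted p under 0.05. Fold changes are therefore of TPM + 0.1, which understates those of low genes. Ratios within libraries were tested by exact permutation (70 assignments, Python 3.11.15). The labels call the libraries biological replicates without naming their cultures, so p-values measure the spread between these samples.

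Positions, exon numbers (canonical transcript), GC content and length came from GENCODE release 44 on GRCh38, which covered 14457 of the genes tested. ENSG00000275895 was matched by identifier. Named were all members, PRMT5, 6 list genes (SF3B6, PHF5A, SNRPA1, SNRPB2, SF1 and ZRSR2), the 2 called genes with the smallest p per list and direction, and the nearest gene of each called member. PDCD7 and RNF113A were named after their values were seen. The members and lists were chosen with earlier results of these data known.

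Alternatives were pseudocounts of 0.5 and 1, no filter or a mean of at least 5 TPM, quantile normalization, median-of-ratios scaling, mitochondrial genes removed, eBayes without a trend, a replicate block, correction for GC content and length (splines with 4 degrees of freedom), U2AF1 with its copy summed, and each library left out. Those for the lists were added after seeing the data.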

Additional observations from a re-analysis of the deposited data

Results flagged for a closer look

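Of the 20 groups of 4 values formed by the 10 members, 3 had a library whose gap to its nearest neighbour, divided by the range of the group, exceeded Dixon's critical value for 4 samples at 95%. Chance alone does so in about 1 of 20 groups. U2AF1 in vehicle replicate 3 was at 206.3 TPM, with a gap of 0.926 of the range, in the one library where the annotated duplicate of U2AF1 was above 0. SF3A2 in vehicle replicate 1 was at 128.66 TPM, with a gap of 0.906 of the range. SF3B5 in LLY-283 replicate 4 was at 170.94 TPM, with a gap of 0.891 of the range, in the library with the lowest share of TPM from mitochondrial genes, 7.19%. The part of that share in the value of SF3B5 was not tested.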

How the results depend on the processing

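Over 20 alternatives, 182 of 200 log2 fold changes of members kept their direction and their side of the threshold, 14 lost the call, 3 gained one (SF3B3, lower) and 1 reversed. SF3A2, SF3B2, SF3B4, U2AF1 and U2AF2 were called in all 20, SF3A1 in 19 (not with the GC trend removed and the replicate block), SF3A3 in 15 and SF3B1 in 12. The reversed value was SF3B5, at -0.02 without LLY-283 replicate 4, with a range of -0.02 to 0.08 over the libraries left out. Members called higher numbered 8 with the replicate block, where 7.56% of all genes were called higher. They numbered 5 with the trend on GC content and length removed and the replicate block (6.55% of all genes). With a library left out they numbered 6 to 8, beside 6.23% to 10.3% of all genes. Members called lower numbered 1 without mitochondrial genes and 0 to 1 with a library left out, the 1 being SF3B3 without LLY-283 replicate 4 or vehicle replicate 1. Of all genes, 18.1% were called lower without mitochondrial genes and 13.1% to 18.5% with a library left out. The members' median was 0.20 under median-of-ratios scaling, and 0.14 to 0.17 with a library left out.

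Quantile normalization called 1871 genes higher and 1820 lower, and median-of-ratios scaling 1927 and 1867, against 1247 and 2541. Of the other U2 particle proteins, 7 to 10 were called higher over the other alternatives on all libraries and 6 to 9 with one left out, 6 being without vehicle replicate 1. In that list 0 were called lower without a filter, under median-of-ratios scaling, by eBayes without a trend, with the replicate block, and with the block and the GC trend removed, and 0 to 1 with a library left out. Median-of-ratios scaling called 5 factors acting with or like U2AF higher and 1 U11/U12 protein. The U11/U12 proteins called higher numbered 0 to 1 with a library left out. The activated spliceosome proteins called higher numbered 3 with the GC trend removed and the replicate block, 7 under quantile normalization or median-of-ratios scaling and 4 to 5 with a library left out, and those called lower 0 to 1 with a library left out. ZRSR2 ranged from -0.04 to 0.05 with a library left out, below 0 without LLY-283 replicate 1 (-0.01) and without vehicle replicate 1 (-0.04). The causes were not tested.

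Same-numbered libraries did not deviate together (correlations of -0.0409, 0.032, -0.00157 and -0.0851), so the numbers give no pairing. With the replicate block 1095 genes were called higher and 2201 lower. Unknown read depth limits what can be said of genes at 0.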
